A study of Mus musculus with 18 samples.

Results

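The genes described here encode the enzymes, transporters and regulators that make, modify and break down ceramides, acylceramides and cholesterol sulfate in the epidermis. Expression was profiled in back skin of HR-1 mice, which are albino and hairless, male and labelled as 6 weeks old, with 18 Affymetrix Mouse Genome 430 2.0 arrays in 3 groups of 6. NT skin was not stripped. TS skin, on the left side of the back, was stripped with cellophane tape 3 times per week for 4 weeks, and a session was stopped once water loss through the skin had reached 70 to 100 g/m2/h. WB skin was stripped likewise, in mice that also took winged bean extract orally (200 mg/kg/day, suspended in 0.3% carboxymethylcellulose) on 5 occasions per week over 5 weeks, beginning 1 week before stripping. The groups share strain, sex, labelled age and the CRF-1 diet, and the labels do not say whether NT and TS mice received the carboxymethylcellulose vehicle. The labels call the arrays of a group biological replicates without naming the animals, so the p-values measure the spread between these samples.

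Members were found by exact gene symbol in the platform annotation, with the probe set of highest mean over the 18 arrays standing for each gene. Of the 39 symbols listed, 29 were measured in this way, among 6842 genes with a varying probe set in the whole table. Lass3 and Lass4, which are older names of Cers3 and Cers4, and Sts, the steroid sulfatase gene, matched no probe set by symbol. Cyp4f39, Aloxe3, Smpd1, Smpd3, Asah1, Ppard and Lipn had probe sets whose deposited values ranged by less than 0.01 over the 18 arrays. Those 7 genes stood at constant levels between 6.66 (Lipn) and 10.33 (Asah1) and give no information on any comparison. All values below are on the deposited scale, read as log2, and an error after ± is the SD of 6 arrays.

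Ceramides are built when serine palmitoyltransferase joins serine to a fatty acid, a reductase turns the product into sphinganine, a ceramide synthase adds a second fatty acid and a desaturase or hydroxylase finishes the sphingoid base. In the upper epidermis a part of them receives very long, omega-hydroxylated fatty acids esterified with linoleate. These acylceramides are packed into lamellar bodies as glucosylceramides, secreted, and rebuilt into the lipid lamellae that waterproof the stratum corneum. Loss of several of these genes, among them Abca12, Alox12b, Cers3, Pnpla1 and Nipal4, is known to cause ichthyosis or a leaking skin barrier.

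The tissue label was checked against markers. All 10 suprabasal keratinocyte markers examined, such as Krt10 and Flg, and all 7 basal keratinocyte markers, such as Krt5 and Krt14, varied over the arrays, and the mean of each list lay above 9.6 on every array. The mean of the suprabasal list ranged from 10.51 to 11.22 in NT, from 11.29 to 11.91 in TS and from 11.45 to 11.73 in WB. The array also carries control probe sets for the 3' and 5' ends of beta-actin, whose difference shows how far labelled RNA reaches from the 3' end. That difference was -0.51 ± 0.10 in NT, 0.16 ± 0.07 in TS and 5.69 ± 0.25 in WB (n = 6 each). The same measure for Gapdh was -0.59 ± 0.11, -0.44 ± 0.11 and 3.70 ± 0.36. In NT replicate 5, the mean of 11 liver markers was 15.24, while the other NT arrays lay between 6.48 and 6.58. Every comparison was therefore repeated without NT replicate 5, which left the counts of members that rose or fell as they were in all 3 comparisons.

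**Figure D1:**
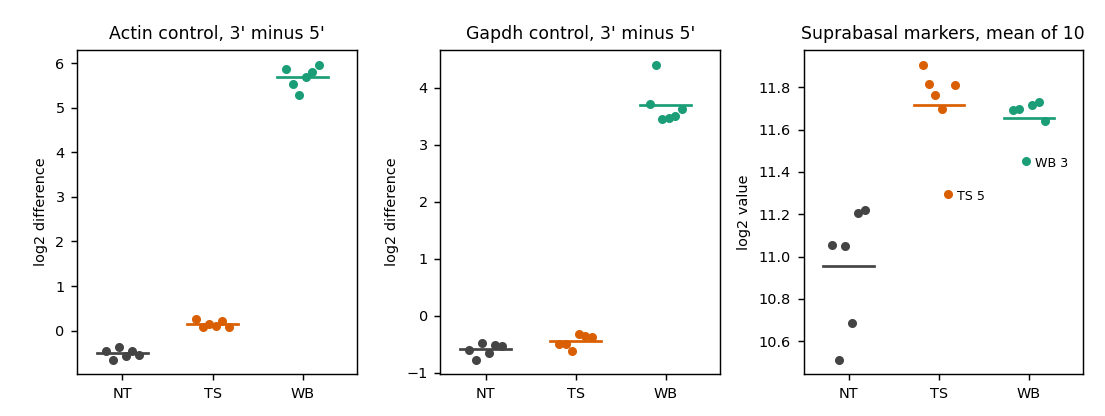
Beta-actin and Gapdh 3' minus 5' control differences (log2) and the mean log2 value of 10 suprabasal keratinocyte markers, by group; each point is 1 array and each line a group mean. WB arrays stand at 5.27 to 5.96 in the actin control, against 0.08 to 0.26 in TS, and TS replicate 5 has the lowest suprabasal marker mean of its group, 11.29.

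The upstream sequences of 6 members are shown to set the genes with large differences between stripped and unstripped skin side by side: the 5 largest rises in TS among members with a single listed start site, and the largest fall, that of Cers5. Each is the 250 bases before the start site in RefSeq (GRCm38.p6), printed 5' to 3' on the strand of the gene. The windows are Cers3 at chr7:66743254-66743503 (plus strand), Abhd5 at chr9:122351366-122351615 (plus strand), Degs2 at chr12:108702307-108702556 (minus strand), Sptlc1 at chr13:53377362-53377611 (minus strand), Nipal4 at chr11:46166360-46166609 (minus strand) and Cers5 at chr15:99772516-99772765 (minus strand). Both strands were searched for 6 short motifs, and capitals mark the matches. They were the AP-1 motif TGANTCA, the centre of the grainyhead motif ACCGGT, the motif of Kruppel-like factors CCACCC, the nuclear receptor element AGGTCA, the sterol response element CACNCCA and the TATA box TATAAA. The motifs of Kruppel-like factors and of sterol response can overlap.
Cers3: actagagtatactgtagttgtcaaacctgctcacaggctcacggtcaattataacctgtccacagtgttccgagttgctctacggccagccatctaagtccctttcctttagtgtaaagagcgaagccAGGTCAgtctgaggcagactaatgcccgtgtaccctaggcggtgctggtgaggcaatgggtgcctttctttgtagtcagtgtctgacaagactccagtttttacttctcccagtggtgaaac
Abhd5: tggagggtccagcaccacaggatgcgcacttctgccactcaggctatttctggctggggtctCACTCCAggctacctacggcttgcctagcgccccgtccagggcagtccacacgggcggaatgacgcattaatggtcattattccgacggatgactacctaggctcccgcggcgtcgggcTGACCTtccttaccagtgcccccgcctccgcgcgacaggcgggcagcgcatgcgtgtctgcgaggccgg
Degs2: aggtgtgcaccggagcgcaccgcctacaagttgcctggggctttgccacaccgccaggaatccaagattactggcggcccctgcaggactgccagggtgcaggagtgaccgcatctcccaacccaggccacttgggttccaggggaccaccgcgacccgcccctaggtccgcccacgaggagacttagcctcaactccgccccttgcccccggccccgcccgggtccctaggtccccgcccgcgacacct
Sptlc1: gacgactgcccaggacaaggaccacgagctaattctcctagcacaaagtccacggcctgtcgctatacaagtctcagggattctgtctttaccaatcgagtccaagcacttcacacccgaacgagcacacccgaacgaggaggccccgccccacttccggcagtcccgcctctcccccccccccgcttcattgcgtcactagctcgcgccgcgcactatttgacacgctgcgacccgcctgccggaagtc
Nipal4: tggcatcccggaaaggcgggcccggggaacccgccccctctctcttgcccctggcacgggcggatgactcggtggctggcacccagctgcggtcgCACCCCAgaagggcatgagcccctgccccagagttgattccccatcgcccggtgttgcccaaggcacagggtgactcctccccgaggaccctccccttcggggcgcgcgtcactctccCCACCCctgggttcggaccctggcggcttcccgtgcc
Cers5: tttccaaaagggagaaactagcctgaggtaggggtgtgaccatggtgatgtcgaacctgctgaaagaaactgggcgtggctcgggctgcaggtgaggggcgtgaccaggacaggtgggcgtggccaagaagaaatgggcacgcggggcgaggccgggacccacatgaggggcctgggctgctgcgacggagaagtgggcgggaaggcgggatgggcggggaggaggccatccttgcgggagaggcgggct

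Upstream of Cers3, AGGTCA matched at bases 122 to 117 before the start site, and upstream of Abhd5 its reverse complement matched at bases 69 to 64. Abhd5 also had CACNCCA at bases 188 to 182, and Nipal4 had it at bases 155 to 149 and CCACCC at bases 37 to 32. The windows of Degs2, Sptlc1 and Cers5 held none of the 6 motifs. Over the whole list, 33 members had 45 start sites in the table. AGGTCA matched 2 of the 15 start sites of members that rose in TS (13.3%) and 14.0% of all 32851 start sites, and CACNCCA matched 5 of 15 (33.3%) and 15.6% of all. TATAAA matched none of the 45, against 12.4% of all, and the median GC content of the 45 windows was 61.6%, against 52.4%. These matches describe letters only.

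Stripped skin had higher transcript levels at the serine palmitoyltransferase, desaturase, acylceramide, lipoxygenase and cholesterol sulfate steps, and lower levels of Cers2, Cers5, Cers6 and the sphingomyelin synthase Sgms2. In TS against NT, 14 of 29 members rose (48.3%) and 4 fell (13.8%). Over all 6842 varying genes, 19.3% rose and 21.1% fell (40.4% called) by the same rule, which was an adjusted p under 0.05 and a difference of at least 0.01. The median difference of the members was 0.31, against 0.0019 over all varying genes. The largest rise was that of Cers3 (1.99), followed by Sult2b1 (1.41), Abhd5 (1.06) and Degs2 (1.04), and the largest fall was that of Cers5 (-1.17). The arrays of the groups did not overlap for 13 of the 29 members (44.8%), against 26.1% of all varying genes.

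**Figure D2:**
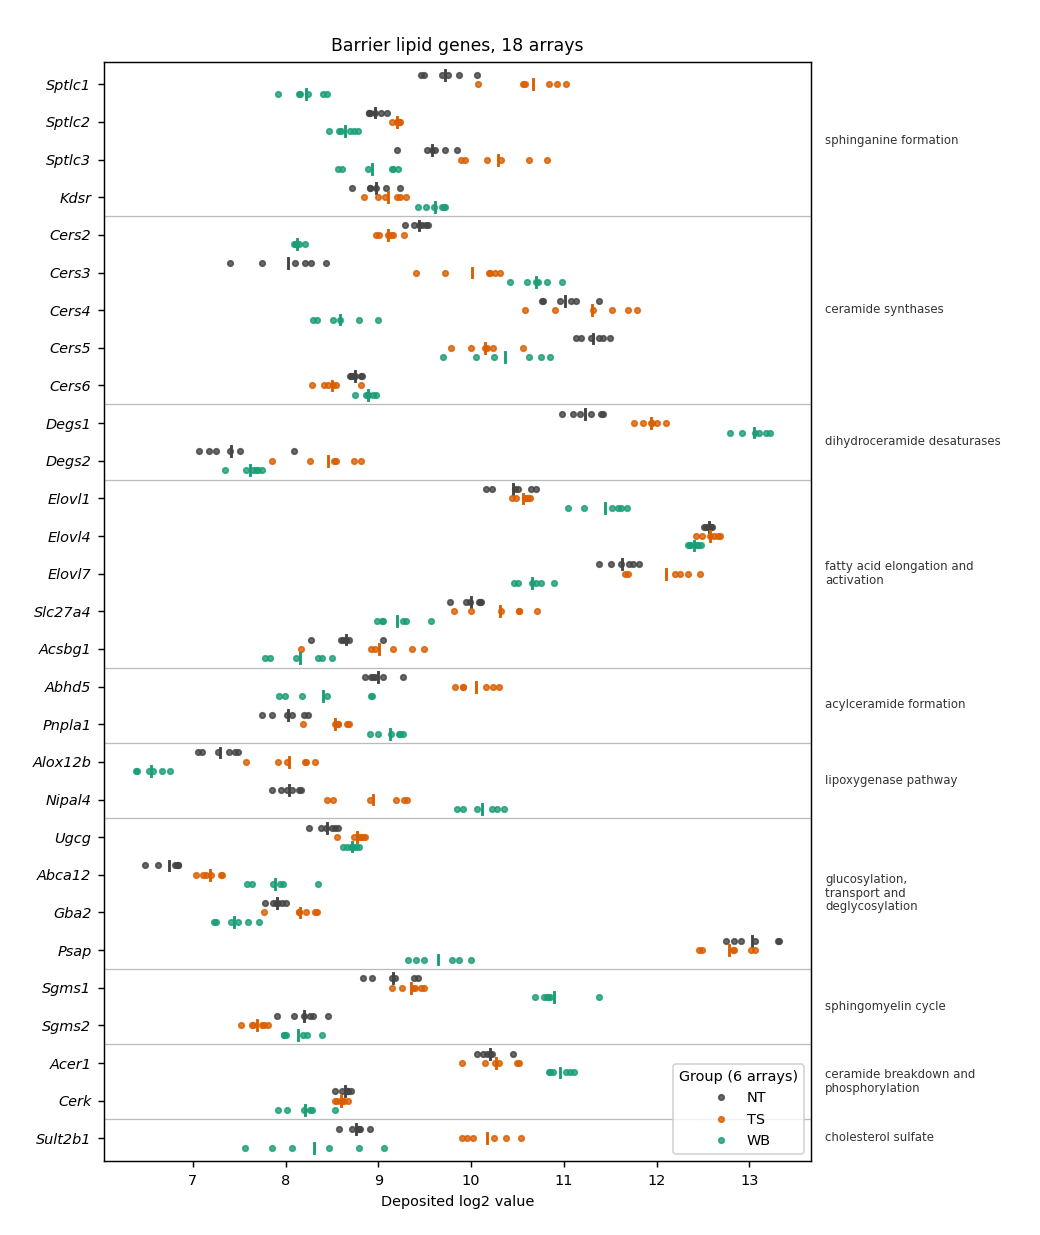
Deposited log2 value of the 29 measured members in each of the 18 arrays, grouped by enzymatic step; points are arrays and short bars are group means. Cers3, Abhd5 and Sult2b1 lie higher in all 6 TS arrays than in any NT array, and Cers5 lies lower.

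Beside these differences, the mean of the 10 suprabasal keratinocyte markers was 0.76 higher in TS than in NT (exact permutation test of 6 against 6 arrays, two-sided, p = 0.00216, adjusted p = 0.00311 over 36 tests of array measures), and 7 of them rose and 1 fell. That p is the smallest such a test can give. The 7 basal keratinocyte markers were 0.28 higher on average (exact permutation p = 0.026, adjusted 0.0323), with 3 that rose and 1 that fell. The 7 adipocyte markers differed by -1.37 on average (6 fell) and the 9 skeletal muscle markers by -2.64 (8 fell), each with an exact permutation p of 0.00216. The hair follicle markers differed by -1.70 (all 8 that varied fell; exact permutation p = 0.00649, adjusted 0.00834), the macrophage markers by -0.64 (6 of 8 fell, 1 rose; exact permutation p = 0.00216) and the fibroblast markers by -0.20 (1 of 7 fell; exact permutation p = 0.00216). The 4 varying sebaceous gland markers differed by -0.37 (2 fell; exact permutation p = 0.0433, adjusted 0.0503). The actin control difference was 0.66 higher. The part of these in the members' differences was not tested. In whole skin, more transcript per keratinocyte and more keratinocyte RNA in the sample cannot be told apart.

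Among genes of serine palmitoyltransferase, which catalyses the first committed step of sphingolipid synthesis, the 3 members Sptlc1, Sptlc2 and Sptlc3 rose. The companion gene Sptssa, its small activating subunit, differed by 0.18 (SE 0.07, adjusted p = 0.102) and did not pass. Sptssa, like the ceramidases Acer2 and Acer3 below, was chosen after its values were seen. Sptlc1, the subunit common to all forms of the enzyme, had values of 9.46, 9.72 and 10.07 in NT (lowest, median and highest of 6 arrays) and of 10.08, 10.71 and 11.03 in TS. The NT and TS arrays were thus just apart, and the difference was 0.95 (SE 0.15, adjusted p = 0.000488, 1.93-fold). Sptlc3, a catalytic subunit that also uses shorter fatty acids, went from 9.20, 9.59 and 9.85 to 9.89, 10.25 and 10.82, a rise of 0.71 (SE 0.17, adjusted p = 0.00948). Sptlc2, the other catalytic subunit, rose by only 0.24 (SE 0.05, adjusted p = 0.00286), but its 6 TS arrays, between 9.15 and 9.24, all stood above the highest NT array, at 9.10. Kdsr, the reductase that follows, differed by 0.13 (SE 0.09, adjusted p = 0.444) and did not pass.

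The ceramide synthases, which differ in the length of the fatty acid they attach, moved in opposite directions. Cers3, the synthase of ultra-long-chain ceramides in differentiating keratinocytes, had values of 7.40, 8.15 and 8.44 in NT and of 9.40, 10.20 and 10.31 in TS, with no overlap. Its rise of 1.99 (SE 0.19, adjusted p = 6.42e-06, 3.96-fold) stood against falls in 3 relatives. Cers5, which makes ceramides with palmitate, fell from 11.13, 11.34 and 11.50 to 9.79, 10.16 and 10.56, again without overlap (-1.17, SE 0.18, adjusted p = 0.000324). Cers2, the broadly expressed synthase of very-long-chain ceramides, fell from 9.44 ± 0.09 to 9.11 ± 0.11 (n = 6 each, adjusted p = 0.000285). Cers6, like Cers5 a synthase of shorter-chain ceramides, fell by 0.25 (SE 0.07, adjusted p = 0.0182), with arrays that overlapped, and missed the threshold when only the 12 arrays compared were fitted (adjusted p = 0.0532). Cers4 differed by 0.29 (SE 0.20, adjusted p = 0.456) and its TS arrays were spread from 10.59 to 11.79.

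Both dihydroceramide desaturases rose. Degs1, which puts in the double bond of ordinary ceramides, rose from 10.98, 11.23 and 11.42 to 11.76, 11.95 and 12.10 (0.71, SE 0.09, adjusted p = 6.54e-05). Its other probe set rose by 1.04 (SE 0.20, adjusted p = 0.0018). Degs2, which also hydroxylates the base to give phytoceramides, rose by 1.04 (SE 0.18, adjusted p = 0.000695) from 7.42 ± 0.37 to 8.46 ± 0.35 (n = 6 each), and a single NT array at 8.09 reached into the TS range, which began at 7.85.

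Of 5 measured members that lengthen and activate the fatty acids, 1 rose, the elongase Elovl7 (0.47, SE 0.14, adjusted p = 0.0261). That call rested on individual arrays and on the probe set. It was lost when NT replicate 2 or 6 or TS replicate 2, 3, 4 or 6 was left out, with adjusted p between 0.0541 and 0.0644, and none of its 5 other varying probe sets passed. Elovl4, the elongase of the ultra-long fatty acids of acylceramides, stood at 12.56 ± 0.03 in NT and 12.58 ± 0.10 in TS (n = 6 each, adjusted p = 0.996). Elovl1 differed by 0.11 (SE 0.11), the acyl-CoA synthase Slc27a4 by 0.31 (SE 0.14) and the synthetase Acsbg1 by 0.36 (SE 0.20), and none of them passed with all 18 arrays. The median difference of the 5 was 0.31, as over all members.

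Among genes that form the acylceramide ester, both measured members rose. Abhd5, the activator of lipases and of PNPLA1, rose from 8.86, 8.95 and 9.27 to 9.83, 10.04 and 10.30, without overlap (1.06, SE 0.17, adjusted p = 0.000483, 2.08-fold). Its other varying probe set rose by 0.36 (SE 0.06). Pnpla1, the transacylase that attaches linoleate to the ceramide, rose by 0.51 (SE 0.10, adjusted p = 0.00197), from 8.02 ± 0.19 to 8.53 ± 0.18 (n = 6 each), and a single TS array, replicate 5 at 8.19, lay within the NT range. The omega-hydroxylase gene Cyp4f39 was among those with constant values.

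In the lipoxygenase branch, which oxidises the linoleate so that the ceramide can be bound to the cornified envelope, Alox12b and Nipal4 rose. Alox12b, the first lipoxygenase, went from 7.06, 7.33 and 7.48 to 7.57, 8.11 and 8.32 (0.75, SE 0.12, adjusted p = 0.000453). Nipal4, a membrane protein of keratinocytes whose loss causes ichthyosis, went from 7.86, 8.04 and 8.17 to 8.44, 9.05 and 9.31 (0.91, SE 0.15, adjusted p = 0.000643). Neither gene had an NT array within the TS range.

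The genes for glucosylation and for loading of lamellar bodies rose by less than Alox12b and Nipal4. Ugcg, the glucosylceramide synthase, rose from 8.44 ± 0.12 to 8.77 ± 0.11 (n = 6 each, adjusted p = 0.00108), and its 2 other varying probe sets rose by 0.16 and 0.62. Abca12, the transporter that carries glucosylceramides into lamellar bodies, had NT values of 6.48, 6.82 and 6.84 and TS values of 7.03, 7.17 and 7.31 (0.44, SE 0.11, adjusted p = 0.0114). Its NT mean lies under the array median of 6.94, so no fold is given. On the side of glucose removal, Gba2, a glucosylceramidase outside the lysosome, differed by 0.25 (SE 0.10, adjusted p = 0.0996). Psap, the precursor of the saposins that assist glucosylceramide breakdown, differed by -0.25 (SE 0.15, adjusted p = 0.355), while its dimmer probe set fell by 0.52 (SE 0.16, adjusted p = 0.0423).

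Sgms2, a sphingomyelin synthase of the plasma membrane, fell from 7.91, 8.23 and 8.46 to 7.52, 7.69 and 7.81, without overlap (-0.51, SE 0.09, adjusted p = 0.000985). Sgms1, its Golgi counterpart, differed by 0.20 (SE 0.12, adjusted p = 0.363). Of the members that remove ceramide, the epidermal alkaline ceramidase Acer1 differed by 0.06 (SE 0.10) and the ceramide kinase Cerk by -0.04 (SE 0.08), and neither passed. Of the companion ceramidases, Acer2 rose by 0.38 (SE 0.09, adjusted p = 0.00786) and Acer3 fell by 0.39 (SE 0.05, adjusted p = 0.000147), both without overlap. Sult2b1, the sulfotransferase that makes cholesterol sulfate, rose from 8.57, 8.79 and 8.91 to 9.90, 10.13 and 10.54 (1.41, SE 0.21, adjusted p = 0.000281, 2.66-fold). Every TS array stood above the highest NT array.

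**Figure D3:**
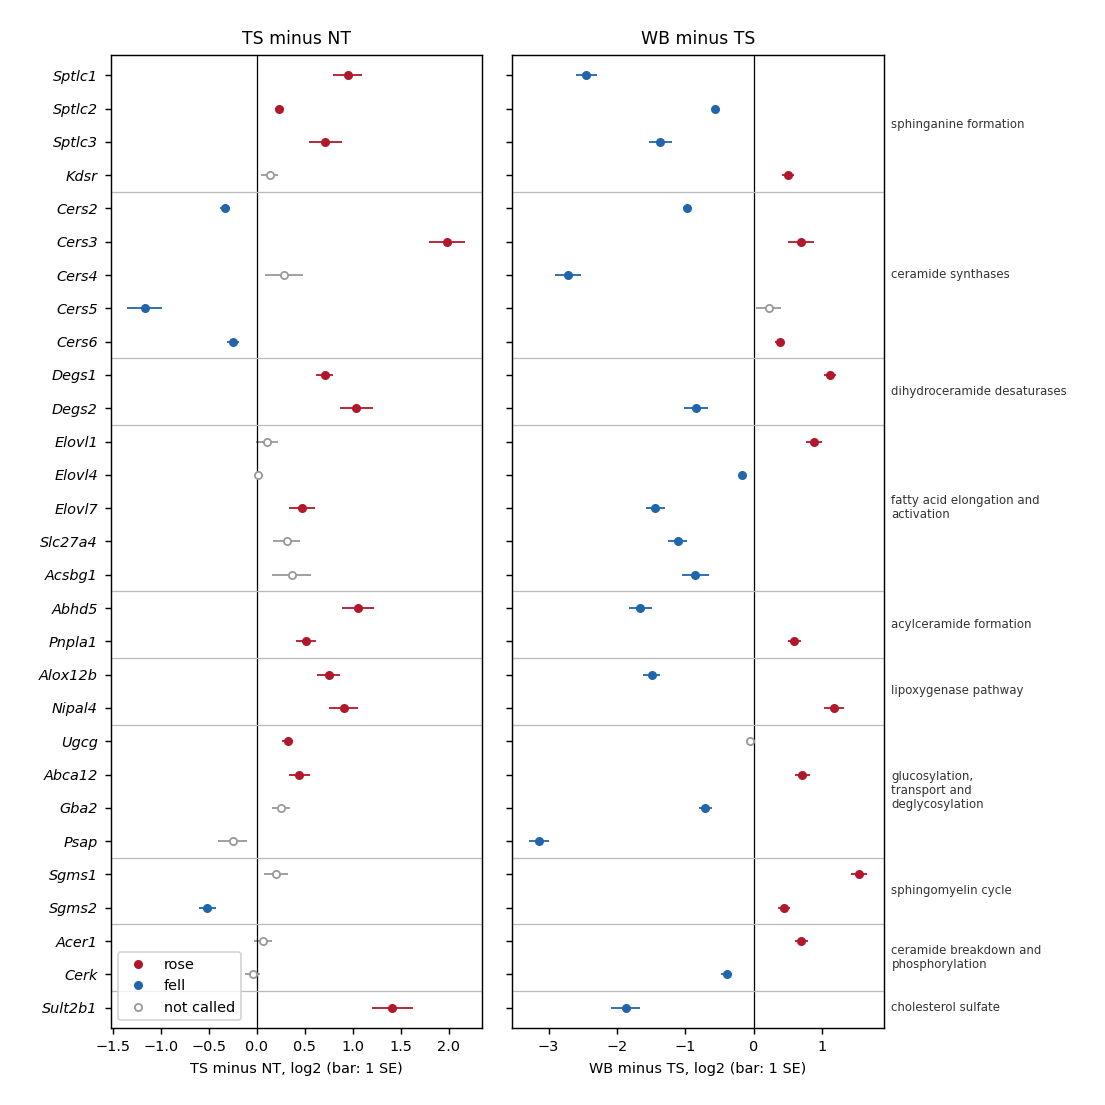
Difference in log2 value of each member in TS minus NT (left) and WB minus TS (right), by enzymatic step, with bars of 1 SE; filled red and blue points passed the test upward and downward, and open points did not. Cers3 (1.99) and Cers5 (-1.17) are the extremes on the left, and Psap (-3.14) is the lowest on the right, where the points of Cers4, Degs1, Elovl1, Elovl7, Sgms1 and Acer1 show the probe set of highest mean only, another being called the opposite way; the horizontal scales differ.

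Within TS, 1 array stood apart in these genes. TS replicate 5 was the lowest of the 6 TS arrays in 16 of 29 members, and its median deviation from the TS mean over the members was -0.23, while the other TS arrays lay between 0.02 and 0.11. It also had the lowest suprabasal marker mean of its group, 11.29 against 11.70 to 11.91. Without it, 17 members rose and 4 fell, the additional rises being those of Slc27a4 (0.41, adjusted p = 0.0401), Acsbg1 (0.53, adjusted p = 0.0388) and Gba2 (0.33, adjusted p = 0.0108). Over all 45037 probe sets, 2208 rose and 2220 fell in that fit, against 2238 and 2313 with all arrays.

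Of the 10 members with more than 1 varying probe set, none had probe sets called in opposite directions in TS against NT, while 33 of 2191 such genes in the whole table did (1.51%). Only Degs1, Abhd5 and Ugcg had more than 1 probe set called, so this count could not show opposite calls in the others. The probe sets of Elovl1, from -0.06 to 0.21, and of Acer1, from -0.08 to 0.06, differed in sign, but none of them passed.

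Among 53 measured companion genes of sphingolipid and barrier lipid handling that are not members, 9 rose and 13 fell in TS against NT, with a median difference of -0.07. The 5 largest rises were those of transglutaminase Tgm1, which ties proteins and ceramides into the cornified envelope (1.23, SE 0.11), the dehydrogenase Sdr9c7, which acts on oxidised acylceramides (1.19, SE 0.13), the phosphatase Sgpp2 (1.03, SE 0.24), the phospholipase Pla2g4e (0.85, SE 0.08) and the fatty acid carrier Fabp5 (0.68, SE 0.08). The 5 largest falls were those of the epoxide hydrolase Ephx1 (-1.16, SE 0.09), the triglyceride synthase Dgat2 (-1.07, SE 0.10), the elongase Elovl5 (-0.68, SE 0.22), the dehydratase Hacd4 (-0.67, SE 0.11) and the ganglioside hydrolase subunit Hexa (-0.52, SE 0.09). Elovl5 passed only narrowly (adjusted p = 0.0473), with arrays that overlapped. The shares of companions that rose and fell, 17.0% and 24.5%, lay near those of all varying genes, 19.3% and 21.1%.

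The comparison of WB with TS sets stripped skin with oral extract against stripped skin without it. Here nearly every varying gene passed the test. In WB against TS, 11 of 29 members rose and 16 fell (27 called, 93.1%), while 48.4% of all 6842 varying genes rose and 39.2% fell (87.7% called). The members' share called was thus near that of all genes. The median difference of the members was -0.40, against 0.16 over all varying genes. These counts and this median read the probe set of highest mean, and 6 members had another probe set called the opposite way. The arrays of the groups did not overlap for 24 of 29 members, 82.8% against 76.0% of all varying genes. Beside this, the actin control difference was 5.53 higher in WB than in TS and that of Gapdh 4.14 higher (adjusted p = 0.00311 for each, by exact permutation). The 10 suprabasal markers differed by -0.06 on average (2 rose and 2 fell, exact permutation p = 0.567). The 7 basal markers differed by -1.18 (5 fell, 2 rose) and the 7 fibroblast markers by -0.78 (4 fell, 1 rose), with p = 0.00216 by exact permutation for each. Skeletal muscle markers differed by -2.97 (7 of 9 fell), adipocyte markers by -1.26 (4 of 7 fell, 2 rose), macrophage markers by -1.24 (6 of 8 fell, 2 rose) and sebaceous gland markers by -0.96 (2 of 4 fell, 1 rose), each with the same exact permutation p. Hair follicle markers differed by 0.77 (4 of 8 rose; exact permutation p = 0.0823). The part of these differences in the members' values was not tested. Every WB array had both the extract and the high control differences. In the members, the extract and a shorter reach of labelled RNA from the 3' end cannot be told apart.

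For several members the direction depended on the probe set read. Of the 10 members with more than 1 varying probe set, 6 had probe sets called in opposite directions in WB against TS, namely Cers4, Degs1, Elovl1, Elovl7, Sgms1 and Acer1, and 984 of all 2191 such genes did (44.9%). Elovl1 rose by 0.89 (SE 0.11) on its highest probe set, of a type that can also bind related transcripts, and fell by 3.42 (SE 0.08) on another. Acer1 rose by 0.69 (SE 0.10) on its highest and fell by 3.90 (SE 0.16) on the other, which went from 9.95 ± 0.43 in TS to 6.06 ± 0.13 in WB (n = 6 each). The 2 Degs1 probe sets moved by 1.11 (SE 0.09) and -1.93 (SE 0.20). No single direction is therefore given for these 6 genes in WB. Counts of members in WB take them on their probe set of highest mean. The median gap between the highest and the lowest difference of a member's probe sets was 2.23 in WB against TS and 0.27 in TS against NT.

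**Figure D4:**
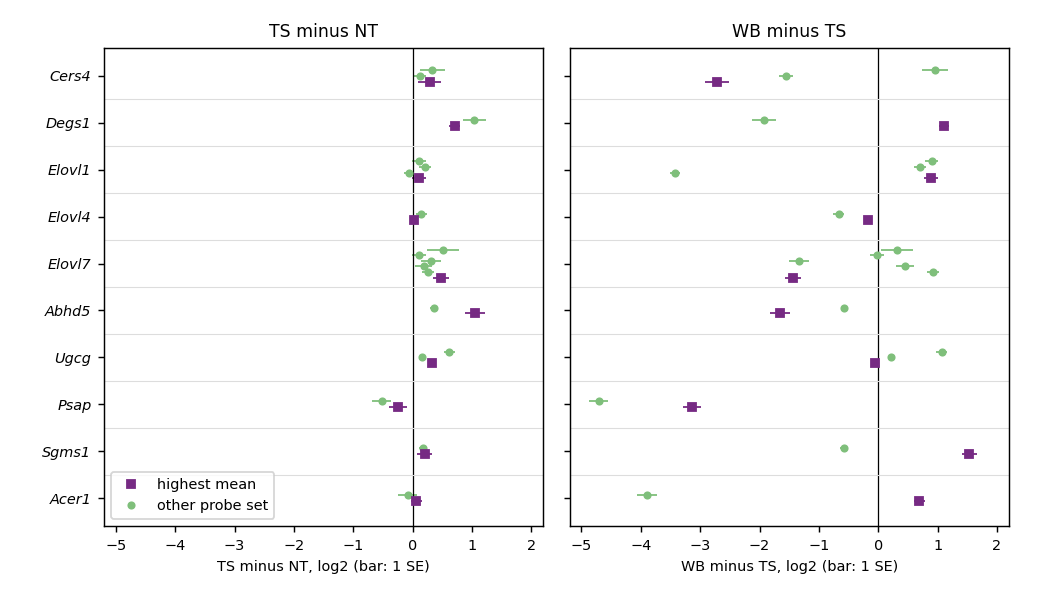
Differences of every varying probe set of the 10 members that have more than 1, in TS minus NT (left) and WB minus TS (right), log2 with bars of 1 SE; squares are the probe set of highest mean and circles the others. On the left the probe sets of a gene lie closer together than on the right, the widest gap being that of Abhd5, from 0.36 to 1.06. On the right those of Elovl1 reach from -3.42 to 0.90 and those of Acer1 from -3.90 to 0.69.

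Of the 29 members, 19 had a single varying probe set, so their directions in WB could not be checked against another, and they include Sptlc1, Sptlc2, Sptlc3 and Cers3. On those single probe sets, the 3 Sptlc genes were lower in WB than in TS, whereas the companion subunit gene Sptssa rose by 0.82 (SE 0.07, adjusted p = 5.6e-08), without overlap. Sptlc1 had WB values of 7.91, 8.20 and 8.45, below every TS array (-2.45, SE 0.15, adjusted p = 1.12e-09). Sptlc3 fell to 8.56, 9.02 and 9.22 (-1.36, SE 0.17) and Sptlc2 to 8.47, 8.64 and 8.78 (-0.56, SE 0.05). Kdsr went the other way, to 9.43, 9.64 and 9.72 (0.50, SE 0.09, adjusted p = 0.000204).

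Among ceramide synthases with 1 varying probe set, Cers3 was again high, with WB values of 10.42, 10.71 and 10.98 that all lay above the highest TS array, 10.31 (0.69, SE 0.19, adjusted p = 0.00593). Cers2 fell to 8.13 ± 0.04 (n = 6; -0.98, SE 0.05). Cers6 rose by 0.38 (SE 0.07), and Cers5 differed by 0.22 (SE 0.18, adjusted p = 0.364) and did not pass. The desaturase Degs2 fell by 0.84 (SE 0.18, adjusted p = 0.000813).

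Genes of the acylceramide and lipoxygenase steps split. Nipal4 rose to 9.84, 10.15 and 10.36 (1.17, SE 0.15, adjusted p = 6.64e-06), Abca12 to 7.58, 7.90 and 8.35 (0.71, SE 0.11) and Pnpla1 to 8.91, 9.18 and 9.27 (0.59, SE 0.10), each above every TS array. Abhd5 fell to 7.92, 8.31 and 8.94 (-1.66, SE 0.17, adjusted p = 4.68e-07) and its other probe set fell by 0.57 (SE 0.06). Alox12b fell by 1.49 (SE 0.12) to 6.55 ± 0.14 (n = 6), under the median of the WB arrays, so no fold is given. Ugcg did not pass on its brightest probe set (-0.05, SE 0.06, adjusted p = 0.53), while its 2 other varying probe sets rose by 0.21 and 1.07.

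Among fatty acid genes, Slc27a4 fell by 1.11 (SE 0.14) and Acsbg1 by 0.85 (SE 0.20). Elovl4 fell by 0.18 (SE 0.04, adjusted p = 0.00153) on the deposited values and its other varying probe set fell by 0.67 (SE 0.09, adjusted p = 1.1e-05). After quantile normalization, the only one of 10 other settings to turn the sign, the first of these rose by 0.15. Psap, at 12.78 ± 0.26 in TS, stood at 9.65 ± 0.28 in WB (n = 6 each; -3.14, SE 0.15, adjusted p = 4.04e-11), and its other probe set fell by 4.71 (SE 0.16). Sult2b1 fell to 7.56, 8.27 and 9.06 (-1.87, SE 0.21, adjusted p = 1.53e-06) and was the most spread member in WB, with an SD of 0.57. Gba2 fell by 0.71 (SE 0.10), Cerk fell by 0.40 (SE 0.08) and Sgms2 rose by 0.44 (SE 0.09).

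Of the 53 companion genes, 23 rose and 21 fell in WB against TS (44 called). That is a smaller share called than over all 6842 varying genes, of which 48.4% rose and 39.2% fell (87.7% called). These counts thus do not set the companions apart from other genes. The extract and the high control differences also coincide in every WB array here. The largest falls were those of the enoyl-CoA reductase Tecr (-4.15, SE 0.12), the aldehyde dehydrogenase Aldh3b2 (-2.57, SE 0.11), Ephx1 (-2.33, SE 0.09), Hacd4 (-2.07, SE 0.11) and the sphingosine phosphate lyase Sgpl1 (-2.04, SE 0.17). The largest rises were those of the lipoprotein receptor Vldlr (1.62, SE 0.18), the galactosylceramidase Galc (1.18, SE 0.41), Ormdl1, which restrains serine palmitoyltransferase (1.18, SE 0.09), Sgpp2 (1.18, SE 0.24) and the lipase Lipm (1.12, SE 0.18). The arrays of Galc overlapped (adjusted p = 0.0266), and its TS values were widely spread, at 5.38, 7.54 and 8.38 (lowest, median and highest).

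WB against NT shares its NT arrays with the first comparison and its WB arrays with the second. In it 10 of 29 members rose and 14 fell (24 called, 82.8%), against 46.9% and 41.3% of all varying genes (88.2% called), beside an actin control difference 6.19 higher in WB. These counts read the probe set of highest mean. Of the 10 members with more than 1 varying probe set, the same 6 had probe sets called in opposite directions, as did 878 of 2191 such genes (40.1%). Skeletal muscle markers differed by -5.61 (8 of 9 fell), adipocyte markers by -2.63 (5 of 7 fell), macrophage markers by -1.88 (5 of 8 fell), sebaceous gland markers by -1.33 (3 of 4 fell), fibroblast markers by -0.98 (5 of 7 fell, 1 rose), basal markers by -0.90 (5 of 7 fell, 2 rose) and suprabasal markers by 0.70 (6 of 10 rose, 3 fell). Each had an exact permutation p of 0.00216, while hair follicle markers differed by -0.93 (4 of 8 fell; exact permutation p = 0.00433). The part of these in the members' differences was not tested. Stripping, extract and the high control differences coincide in every WB array and cannot be told apart against NT. The groups did not overlap for 22 of 29 members, 75.9% against 80.5% of all varying genes. Cers3 was 2.68 (SE 0.19) higher than in unstripped skin, Nipal4 2.08 (SE 0.15), Abca12 1.15 (SE 0.11) and Pnpla1 1.11 (SE 0.10). Sptlc1 was lower than in unstripped skin by 2.83-fold, Cers2 fell by 1.31 (SE 0.05), Cers5 fell by 0.95 (SE 0.18) and Psap fell by 3.39 (SE 0.15). Degs2 (0.20, SE 0.18), Sgms2 (-0.07, SE 0.09), Cers6 (0.14, SE 0.07), Acsbg1 (-0.49, SE 0.20) and Sult2b1 (-0.46, SE 0.21) did not pass. Of these 5, some passed under other choices. Sult2b1 passed without WB replicate 3 (-0.61, adjusted p = 0.0132) or 4 (-0.56, adjusted p = 0.0447), and Acsbg1 without NT replicate 4 (adjusted p = 0.0409), TS replicate 5 (0.0169) or WB replicate 6 (0.045). Cers6 passed without TS replicate 4 (adjusted p = 0.022). With all arrays kept, Cers6 passed after quantile normalization (0.24, adjusted p = 0.00244) or median centring, and with array weights or only the 12 arrays compared (adjusted p from 0.00244 to 0.0412 over the 4). Acsbg1 passed in 4 other settings (adjusted p from 0.0257 to 0.0405) and Sult2b1 in 2 (0.0277 and 0.0411). Where 88.2% of all varying genes were called, so were 43 of the 53 companion genes (81.1%): 20 rose and 23 fell. Their largest rises were in Sgpp2 (2.21), Lipm (1.63), Vldlr (1.48), the ceramidase Acer2 (1.35) and the glycolipid transfer protein Gltp (1.28), and their largest falls in Tecr (-4.58), Ephx1 (-3.49), Hacd4 (-2.74), Aldh3b2 (-2.25) and Dgat2 (-2.02).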

How the data were processed

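Each array received cRNA made from 100 ng of total RNA, per the labels' protocols. The authors deposited a single matrix of probe set values; their summarisation, scaling and log base are not stated in those sources. Deposited values run from 2.93 to 19.04 and were read as log2, on which all folds rest. Of 45101 probe sets, 64 controls were dropped and 45037 entered the tests, of which 33091 ranged by less than 0.01. Array number limits the precision. Symbols come from the platform annotation (34945 probe sets with 1 symbol, 932 with several, 9160 with none), and a gene takes the probe set of highest mean. A limma 3.58.1 model (R 4.3.3, lmFit and eBayes, two-sided tests, Benjamini-Hochberg over 45037 probe sets) held all 18 arrays without a replicate block. The code was tested on simulated data. Array measures were compared by exact permutation. Every measured member is named and, of companion genes, the 5 largest called rises and falls, with 3 added after their values were seen. Members and lists were chosen with earlier results of these data known. Alternatives were other scalings, filters, fits, probe set choices and each array left out.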

Additional observations from a re-analysis of the deposited data

Results flagged for a closer look

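Among 123 sets of 6 values (each member and each array measure in each group), 8 held an array far from the other 5 by Dixon's test at the 95% level. Chance alone marks about 1 in 20 such sets. In the members, Pnpla1 stood at 8.19 on TS replicate 5, with the other TS arrays between 8.54 and 8.69. Gba2 stood at 7.77 on the same array, with the others between 8.14 and 8.33. Sgms1 stood at 11.38 on WB replicate 6, with the others between 10.69 and 10.85. In the array measures, the suprabasal keratinocyte marker mean was 11.29 on TS replicate 5 and 11.45 on WB replicate 3. The Gapdh 3' minus 5' difference was 4.41 on WB replicate 2, the fibroblast marker mean was 11.87 on WB replicate 4 and the liver marker mean was 15.24 on NT replicate 5.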

How the results depend on the processing

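Of 87 member differences (29 genes in 3 comparisons), 63 kept direction and call in all 10 other settings and all 18 fits that left out 1 array. Over those 18 fits, members that rose numbered 13 to 17 and those that fell 4 to 4 in TS against NT, 11 to 11 and 16 to 16 in WB against TS, and 10 to 11 and 14 to 15 in WB against NT. Probe sets called numbered 4031 to 4660, 10482 to 10619 and 10539 to 10689. Companion rises and falls were 9 to 13 and 10 to 13, 21 to 24 and 21 to 22, and 19 to 22 and 23 to 24. Elovl4 in TS against NT lay between -0.0036 and 0.047. Whether the replicate numbers pair the samples cannot be settled from 6 same-numbered pairs for each pair of groups. Same-numbered arrays had correlations of deviations from -0.27 to 0.14. In NT and TS, 2 of 6 same-numbered pairs passed 0.1, against 1 of 30 different-numbered pairs. For NT and WB these were 2 of 6 and 3 of 30, and for TS and WB 0 of 6 and 11 of 30. With the replicate block, 13 members rose and 4 fell in TS against NT, 11 and 16 in WB against TS, and 10 and 14 in WB against NT, and Elovl7 lost its call (adjusted p = 0.0722). Probe sets called became 39795 after quantile normalization and 43993 after median centring in WB against TS (main 10612), and 41328 and 43993 in WB against NT (main 10667), because probe sets with constant values move with the scaling. Their share higher was then 88.1% and 88.8%, and 88.3% and 88.3%, against 53.1% and 51.2% before. In TS against NT it was 68.8% after quantile normalization, against 49.2%. Quantile normalization moved the members' WB minus TS differences up by a median of 0.11, and those of WB minus NT by 0.13. It turned Elovl4 to 0.15 and Ugcg to 0.056 in WB against TS, and Elovl4 to 0.28 and Sgms2 to 0.078 in WB against NT. With the mean of a gene's varying probe sets, and with the probe set of largest range, Acer1 turned to -0.00845 and -0.080 in TS against NT, -1.60 and -3.90 in WB against TS, and -1.61 and -3.98 in WB against NT. Elovl1 turned to -0.23 and -3.42 in WB against TS, to -0.14 and -3.48 in WB against NT and, with the largest range, to -0.055 in TS against NT. Degs1 turned to -0.41 and -1.93 in WB against TS and, with the largest range, to -0.88 in WB against NT. Ugcg turned to 0.41 and 1.07 in WB against TS, and Elovl7 with the mean to 0.12 in WB against NT. Member counts moved with these choices too. In WB against TS, 9 rose and 18 fell on the mean, and 9 and 19 on the largest range. For WB against NT the counts were 8 and 14, and 7 and 17. For TS against NT they were 13 and 4, and 13 and 5. Beyond the constant values, the cause of these changes was not tested. The table holds no background measure, so differences at levels under the array median are uncertain in size.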
